A study of Rattus norvegicus with 12 samples.

Results

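Faecal bacteria of rats with experimental subarachnoid haemorrhage, a bleed into the space around the brain, were compared with those of rats given a sham procedure. The comparison holds the 6 libraries titled Sham or SAH, 3 of each, out of 12 in the series, and neither group carries the tetrandrine (Tet) or ABX labels of the other 6. The study asked whether gut microbiota composition differed among its groups. A second treatment label, the same in every library, names a cell differentiation protocol that does not match rat faeces and was not used. Nothing in the sources used here gives the surgical model, the strain, age or sex of the rats, their housing, or when faeces were taken. The labels do not state whether each library is a separate animal, so every p-value below measures only the spread between libraries. The edgeR, DESeq2 and limma p-values come from 9 libraries, these 6 and the 3 labelled SAH+Tet, unless another set is named. The exact permutation tests used these 6 alone, or fewer where a library was left out.

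Part of the gene for 16S ribosomal RNA was sequenced, a gene carried by all bacteria whose variable stretches differ between taxa. The deposited values are read counts for each ASV (amplicon sequence variant), a distinct sequence left after sequencing errors are removed. The ASVs were summed by the family and the genus of their lineage, and each value below is a share of the library's reads. Of 7238 bacterial and archaeal ASVs, 5207 had reads in these 6 libraries, 3763 of them in Sham, 3190 in SAH and 1746 in both. In the rat gut, Lachnospiraceae, Oscillospiraceae and Ruminococcaceae ferment fibre to short-chain fatty acids, Muribaculaceae and Prevotellaceae break down plant and host glycans, Lactobacillus makes lactate, and Akkermansia lives on mucin. Shares are relative: fewer cells of a taxon and more cells of the others cannot be told apart.

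Totals were 495885, 498430 and 519889 reads for Sham 1 to 3, and 248285, 531426 and 448795 for SAH 1 to 3. A taxon with 0 reads could still make up 0.0012% of SAH 1, or 0.00056% to 0.00067% of the other 5 libraries (3 reads of the total, counting error only). SAH 1 was thus the only library of lower depth.

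Before the results, an overlap among the SAH libraries has to be stated. Every one of the 243 ASVs with at least 0.05% of reads in SAH 1 was also found in SAH 2, at a median of 0.512 times its SAH 1 share, with an interquartile range of 0.445 to 0.584. Among them, 60 ASVs had 0 reads in SAH 3, and all 60 were found in SAH 2 at a median ratio of 0.462 (0.419 to 0.508). In the other direction, 93 ASVs of at least 0.05% in SAH 2 had 0 reads in SAH 1, and all 93 were found in SAH 3, at a median ratio of 0.839. All 284 ASVs of that size in SAH 2 therefore occurred in SAH 1 or SAH 3, against 235 of 253 in the same count for Sham 2, 240 of 248 for Sham 1 and 270 of 274 for Sham 3. Across the 243 ASVs of SAH 1, the interquartile range of the SAH 2 to SAH 1 ratio spanned 0.39 log2 units. Taken over the ASVs of that size in SAH 2 that were found in SAH 1, it spanned 0.74. The same measure was 1.20 and 1.87 for SAH 2 with SAH 3, and 2.48 and 3.13 for SAH 1 with SAH 3. For pairs of Sham libraries it was 1.23 to 3.19. A mix of 42% SAH 1 and 58% SAH 3 lay at a Bray-Curtis distance of 0.244 from SAH 2, closer than SAH 1 (0.451) or SAH 3 (0.349) alone. Corresponding best mixes lay at 0.2915 from Sham 1, 0.502 from Sham 2 and 0.3015 from Sham 3. The SAH mix did not match every ASV. At the median, the 93 ASVs with 0 reads in SAH 1 held more in SAH 2 than in SAH 3. Any mix of SAH 1 and SAH 3 would hold less of them than SAH 3. SAH 2 held the middle value of its group at 51.2% of the 289 ASVs with a mean share of at least 0.05% in SAH, and Sham 1 in its group at 42.65% of 272. The cause of this sharing was not tested. The tests below take SAH 1, SAH 2 and SAH 3 as 3 samples. The main counts, and only some of the fold changes, sums and richness values, are also given without SAH 2. The distances within genera were not recomputed without it.

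**Figure D1:**
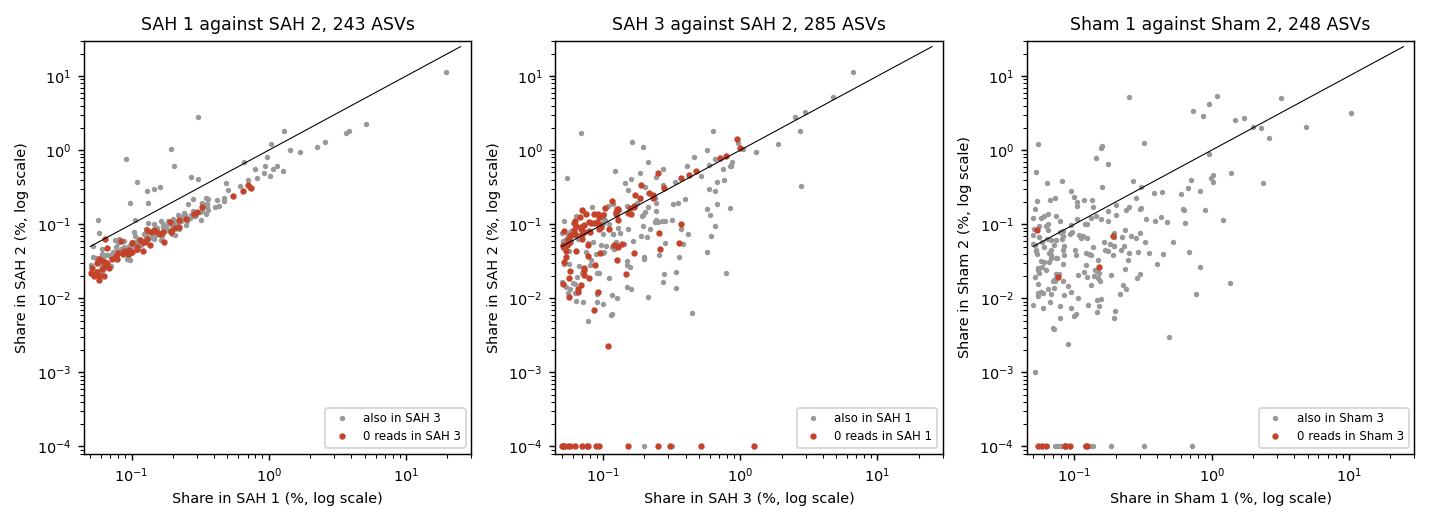
Share of reads per ASV (%, log axes) in SAH 2 against SAH 1, in SAH 2 against SAH 3 and, for comparison, in Sham 2 against Sham 1, for ASVs of at least 0.05% in the library on the horizontal axis. Red points have 0 reads in the remaining library of the group, points on the lower edge have 0 reads in the library on the vertical axis, and the line marks equal shares. The 243 ASVs of SAH 1 form a narrow band below the line, at a median of 0.512 times their SAH 1 share, while the Sham pair scatters more widely.

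Distances between libraries were computed at 4 ranks, and summing ASVs into coarser ranks can only lower them. At ASV level the 9 Sham to SAH distances averaged 0.655 (0.581 to 0.749), against 0.451 within Sham and 0.484 within SAH, and group accounted for 47.2% of the variation. That share was 45.6% at genus level, 35.1% at family level and 34.8% at phylum level. The exact permutation p was 0.1 for ASVs and genera, the smallest that 20 arrangements allow, 0.2 for families and 0.3 for phyla, so none could pass 0.05. SAH 1 and SAH 3 were 0.653 apart at ASV level, about as far as a SAH library from a Sham library on average. Without SAH 2 the group's share was 41.8% for ASVs, 38.3% for genera, 25.7% for families and 22.2% for phyla, and without SAH 1 it was 57.7%, 60.0%, 59.3% and 81.7%. Without SAH 3 the share for phyla was 22.8%.

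**Figure D2:**
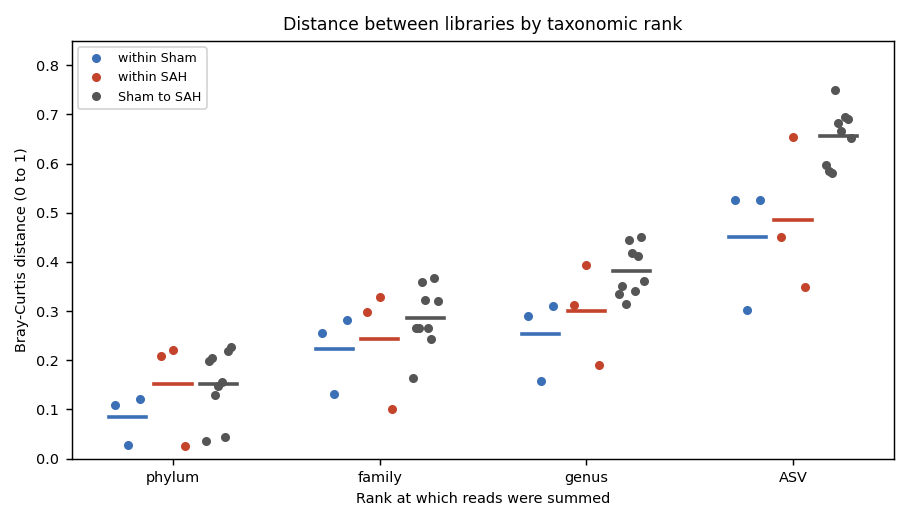
Bray-Curtis distance (0, identical shares, to 1, nothing shared) between pairs of libraries after summing reads at 4 ranks. Points are pairs of libraries, bars are means. At ASV level the between-group mean is 0.655 against 0.451 and 0.484 within groups, while at phylum level the mean is 0.151 both between the groups and within SAH.

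Families divided that distance unequally. Lachnospiraceae, the largest family of fibre fermenters, made up 29.9% of the ASV-level distance but 14.6% of the family-level distance, since differences of opposite sign between its ASVs cancel in the sum (19.6 against 4.19 points of share). Ruminococcaceae behaved likewise, with 4.04 points at ASV level and 0.778 at family level. Corynebacteriaceae, Gram-positive rods common on skin, gave 3.28 points at both levels, and Akkermansiaceae 1.40 and 1.37.

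Of the 93 families tested, 2 passed at an adjusted p under 0.05 (edgeR quasi-likelihood test, Benjamini-Hochberg), which is 2.15%, both higher in SAH. Erysipelatoclostridiaceae, a family of Firmicutes, held 0.0113%, 0.0319% and 0.0487% in Sham 1 to 3 and 0.559%, 0.311% and 0.336% in SAH 1 to 3. The lowest SAH share was several times the highest Sham share, and the log2 fold change was 4.13 ± 0.74 (SE; edgeR adjusted p = 0.0463). Coriobacteriaceae, here only Collinsella, a genus known for transforming bile acids, had 0 reads in the Sham libraries and 0.0105%, 0.0109% and 0.0107% in SAH, at least 18.0-fold higher (edgeR adjusted p = 0.0463). It passed the filter on low counts only through the SAH libraries, so its p is not independent of its high share there, and it is given as a description. DESeq2 called 27 of the 93 families (29%; 18 higher, and 9 lower or 9.68%), limma on centred log-ratios 5 (5.38%; Coriobacteriaceae and Enterococcaceae higher, and 3 lower or 3.23%, with an adjusted p of 0.0887 for Erysipelatoclostridiaceae), and a fit with depth class as a block 18 (19.4%; 15 higher, and 3 lower or 3.23%). With a filter of 50 reads, 1 of 68 passed (1.47%). Neither edgeR call held when any 1 of the 6 libraries was left out. For Erysipelatoclostridiaceae the edgeR adjusted p then lay between 0.0536 (without SAH 1) and 0.129 (without Sham 2), and it was 0.0919 without SAH 2, with a log2 fold change of 4.37. Collinsella could no longer be tested without any 1 SAH library, and its edgeR adjusted p was 0.0923 to 0.129 without a Sham library.

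The groups did not overlap, with SAH higher, in 13 of the 93 families (14%) and, with SAH lower, in 18 (19.4%). Without SAH 2 these counts were 14 and 20, and leaving out a library can only keep or raise them. Beside the called families, those above included Enterobacteriaceae, the facultative Gram-negative family of Escherichia, with 0.00807%, 0.0114% and 0.00154% in Sham and 0.0129%, 0.184% and 0.238% in SAH (log2 fold change 4.52, edgeR adjusted p = 0.118). Sutterellaceae, Gram-negative asaccharolytic bacteria represented by Parasutterella, held 0.147%, 0.0477% and 0.111% in Sham and 0.321%, 0.620% and 0.398% in SAH (2.22, 0.119). Enterobacteriaceae in SAH 1 lay just above Sham 2, while Sutterellaceae was well apart in all libraries. Muribaculaceae, the main glycan-degrading family of the rodent gut, held 11.6%, 7.07% and 10.6% in Sham and 12.7%, 13.4% and 15.3% in SAH, a small gap between the groups (0.68, 0.352).

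Families below in every SAH library included Akkermansiaceae, mucin users, with 1.09%, 5.44% and 1.80% in Sham and 0%, 0.0442% and 0.0334% in SAH (log2 fold change -6.44, edgeR adjusted p = 0.119). Spirochaetaceae, corkscrew-shaped bacteria here almost all Treponema, held 0.960%, 0.139% and 1.19% in Sham and 0.00483%, 0.0356% and 0.0885% in SAH (-4.19, 0.176). Mycoplasmataceae, bacteria without a cell wall, held 0.0278%, 0.00682% and 0.00769% in Sham and 0%, 0.000565% and 0.000891% in SAH (-4.76, 0.119), so the SAH values lie at or near the limit of a count of 0. Larger fermenting families were lower by less. Oscillospiraceae held 7.11%, 6.46% and 8.53% in Sham and 5.28%, 3.52% and 5.08% in SAH, and Clostridia UCG-014, a lineage without cultured members, 2.92%, 2.73% and 3.95% against 1.96%, 1.81% and 1.41%. Monoglobaceae, pectin degraders, held 1.28%, 1.21% and 1.45% against 0.958%, 0.760% and 0.820%. Selenomonadaceae, here nearly all Quinella, held 1.09%, 0.593% and 1.75% against 0.217%, 0.1995% and 0.519%. None of these passed, and the edgeR adjusted p was between 0.143 and 0.599 for the last 4.

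Several other families of at least 1% overlapped between the groups. Corynebacteriaceae, whose ASVs here all belonged to Corynebacterium, did not overlap, and its shares are given below with that genus. Lachnospiraceae held 29.0%, 19.9% and 32.6% in Sham and 29.6%, 16.1% and 17.5% in SAH. Lactobacillaceae held 16.2%, 10.25% and 7.66% against 26.5%, 15.6% and 10.2%. Prevotellaceae, with 3.61%, 11.0% and 2.51% against 2.23%, 6.86% and 7.55%, varied more within than between groups. Peptostreptococcaceae, nearly all Romboutsia, held 5.18%, 8.24% and 4.48% against 2.40%, 3.19% and 4.84%, with SAH 3 above Sham 3. Ruminococcaceae (5.91% ± 2.06 against 5.15% ± 0.613, mean ± SD, n = 3 each), Erysipelotrichaceae (2.91% ± 0.551 against 3.14% ± 1.26) and Bacteroidaceae (1.05% ± 0.678 against 1.87% ± 0.321) also overlapped.

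At genus level, 0 of 187 genera passed (0%; lowest edgeR adjusted p 0.0927), while 55 had an unadjusted p under 0.05, DESeq2 called 48 and limma on centred log-ratios 9. The SAH libraries all lay above Sham in 23 genera (12.3%) and all below in 43 (23%), and without SAH 2 in 25 and 47. Of the 23, 4 had 0 reads in every Sham library and could pass the filter on low counts only through other groups. Without SAH 2 the log2 fold change was 4.66 for Blautia, 9.37 for Corynebacterium, 5.33 for Escherichia-Shigella, 3.97 for Candidatus Arthromitus and -7.21 for Akkermansia. Among the 23, SAH 1 held the lowest SAH share in 9 and the highest in 12. In 6 its share was over 10 times lower than in either other SAH library, so genera higher in SAH fell into sets that different libraries carried.

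The first set was fermenting Lachnospiraceae, highest in SAH 1, intermediate in SAH 2 and lowest in SAH 3. Blautia, which makes acetate, held 0.0551%, 0.4185% and 0.0541% in Sham and 5.76%, 2.77% and 0.476% in SAH (log2 fold change 4.35 ± 1.23 SE, edgeR adjusted p = 0.115). SAH 3 cleared Sham 2 by little. Fusicatenibacter had 0 reads in Sham 1 and Sham 3, 0.00241% in Sham 2, and 2.12%, 0.900% and 0.00936% in SAH. Frisingicoccus had 0 reads in Sham and 0.251%, 0.0962% and 0.00267% in SAH, at least 196-fold higher on the mean. The same order was seen in Marvinbryantia (0.00565%, 0.0215% and 0.0167% in Sham; 0.242%, 0.109% and 0.0316% in SAH). The [Bacteroides] pectinophilus group, a pectin-degrading lineage, also followed it (0.00222%, 0.0261% and 0.00462%; 0.408%, 0.169% and 0.0827%). Coprococcus, a butyrate producer, was present in SAH 1 (0.266%) and SAH 2 (0.127%) with 0 reads in SAH 3, Sham 2 and Sham 3, and 0.00323% in Sham 1.

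The second set was much lower in SAH 1 than in SAH 2 and SAH 3. Corynebacterium held 0.00424%, 0.0112% and 0.00808% in Sham and 0.0451%, 10.25% and 9.40% in SAH (log2 fold change 9.82 ± 2.71 SE, edgeR adjusted p = 0.115). Jeotgalicoccus, a relative of Staphylococcus, and Facklamia, a relative of Aerococcus, had 0 reads in Sham. Jeotgalicoccus held 0.00322%, 0.538% and 0.496% in SAH and Facklamia 0.00201%, 0.476% and 0.414%. Aerococcus had 0 reads in Sham 1 and Sham 2, 0.000577% in Sham 3, and 0.00201%, 0.528% and 0.477% in SAH. Enterococcus, a facultative lactic acid coccus, held 0.000202%, 0% and 0.00135% in Sham and 0.00201%, 0.141% and 0.158% in SAH. In SAH 1 both lay close to the limit that 0 reads allows there. Kurthia, of the Planococcaceae, was found in SAH 2 (0.906%) and SAH 3 (0.864%), with 0 reads in the other 4 libraries, and was not tested. Escherichia-Shigella held 0.00424%, 0.00421% and 0.00154% in Sham and 0.0129%, 0.183% and 0.238% in SAH (5.51 ± 1.13, edgeR adjusted p = 0.0927). Dubosiella, a saccharolytic Firmicute of rodents, held 0.324%, 0.0215% and 0.0444% in Sham and 0.322%, 3.11% and 2.82% in SAH, so SAH 1 lay within the Sham range. The uncultured p-2534-18B5 gut group of the Bacteroidales, picked here after its values were seen, held 0.00121%, 1.25% and 0.967% in SAH against at most 0.000385% in Sham, and too few libraries had reads for it to be tested.

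The third set was high in all 3 SAH libraries. Candidatus Arthromitus, the segmented filamentous bacteria that attach to the ileal wall, held 0.00323%, 0.00181% and 0.00423% in Sham and 0.0338%, 0.0141% and 0.0459% in SAH (log2 fold change 3.52 ± 0.74 SE, edgeR adjusted p = 0.0927). Candidatus Stoquefichus held 0.00726%, 0.0201% and 0.0381% in Sham and 0.173%, 0.103% and 0.135% in SAH (2.89 ± 0.70, edgeR adjusted p = 0.115). Erysipelotrichaceae UCG-003, its relative in the called family, held 0%, 0.00461% and 0.000962% against 0.355%, 0.190% and 0.170% (7.23, edgeR adjusted p = 0.115). Erysipelatoclostridium held 0.00403%, 0.00662% and 0.00846% against 0.0306%, 0.0164% and 0.0196%. In these 3 genera of the family, no Sham library reached the lowest SAH share.

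**Figure D3:**
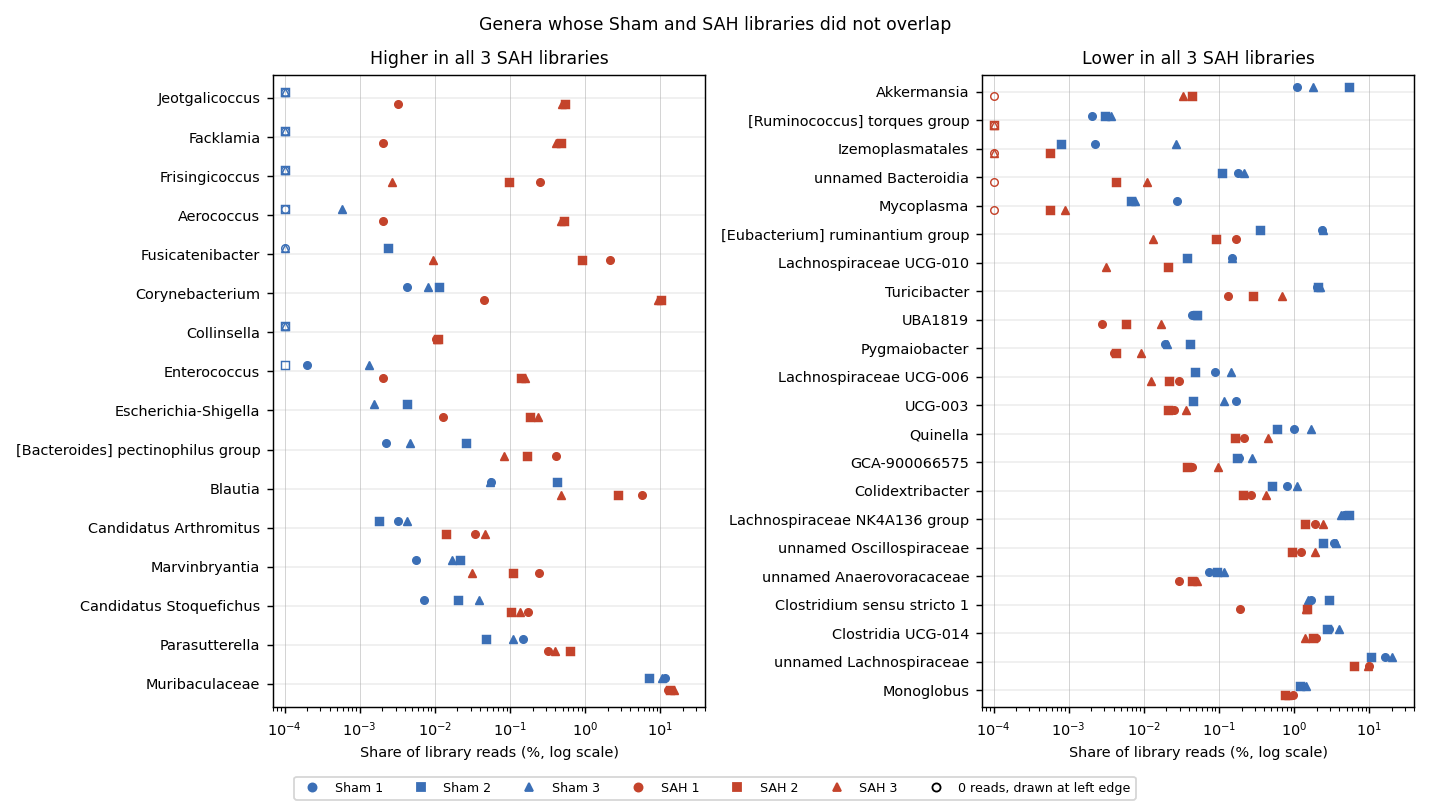
Share of reads (%, log axis) of the genera that met the naming rule and whose Sham (blue) and SAH (red) libraries did not overlap, with 1 symbol per library and open symbols for 0 reads. On the left, Corynebacterium runs from 0.0451% in SAH 1 to 10.25% in SAH 2, and Fusicatenibacter the other way from 2.12% in SAH 1 to 0.00936% in SAH 3. On the right, Turicibacter and the Lachnospiraceae NK4A136 group keep narrow Sham ranges above all SAH libraries.

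Genera lower in all SAH libraries included several abundant ones. Turicibacter, spore formers of the small intestine, held 2.01%, 2.08% and 2.20% in Sham and 0.131%, 0.285% and 0.690% in SAH (log2 fold change -2.38 ± 0.68 SE, edgeR adjusted p = 0.115, and -2.17 without SAH 2). The Lachnospiraceae NK4A136 group, fibre fermenters of the rodent gut, held 4.56%, 5.36% and 4.27% against 1.90%, 1.40% and 2.41% (-1.14 ± 0.33, edgeR adjusted p = 0.115, and -0.84 without SAH 2). Both had a lowest Sham share well above the highest SAH share. Akkermansia, with the same reads as its family, had a log2 fold change of -6.62 ± 2.37 (edgeR adjusted p = 0.115). The [Eubacterium] ruminantium group held 2.37%, 0.356% and 2.44% against 0.168%, 0.0909% and 0.0131% (-4.02 ± 1.67, edgeR adjusted p = 0.157). Quinella, large rumen-type bacteria, held 0.986%, 0.591% and 1.68% against 0.217%, 0.163% and 0.444%. Odoribacter, a short-chain fatty acid producing member of the Bacteroidales, held 0.148%, 0.178% and 0.187% against 0%, 0.00565% and 0.0129%.

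Lachnospiraceae, Oscillospiraceae and Ruminococcaceae held 18 of the 43 non-overlapping lower genera (41.9%) and 52 of the 187 tested (27.8%). Among Lachnospiraceae, GCA-900066575 held 0.186%, 0.172% and 0.2745% in Sham and 0.0435%, 0.0374% and 0.0983% in SAH. Lachnospiraceae UCG-010 held 0.150%, 0.0373% and 0.1496% against 0.0209%, 0.0213% and 0.00312%. The [Ruminococcus] torques group, known as mucin degraders, had 0.00202% to 0.00365% in Sham and 0 reads in SAH, at least 3.56-fold lower. Reads of the family without a genus name held 16.0%, 10.5% and 20.4% against 10.1%, 6.23% and 9.63%. Among Oscillospiraceae, Colidextribacter held 0.804%, 0.516% and 1.10% against 0.266%, 0.208% and 0.428%, and UCG-003 held 0.167%, 0.0453% and 0.118% against 0.0254%, 0.0207% and 0.0370%. Reads without a genus name there held 3.36%, 2.42% and 3.56% against 1.24%, 0.935% and 1.89%. Among Ruminococcaceae, UBA1819 held 0.0438%, 0.0518% and 0.0512% against 0.00282%, 0.00583% and 0.0169%. Pygmaiobacter held 0.0192%, 0.0417% and 0.0206% against 0.00403%, 0.00433% and 0.00914%. None of these overlapped, and none passed (edgeR adjusted p 0.115 to 0.359). The abundant genera Ruminococcus (3.29% ± 1.38 in Sham, 3.78% ± 1.09 in SAH), UCG-005 (2.10% ± 0.503, 2.18% ± 0.895) and Roseburia (2.44% ± 0.684, 3.29% ± 1.86) overlapped.

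The bacterial groups are given as lists of genera, read against all 187 tested genera, of which 97 lay above 0 and 90 below at a median log2 fold change of 0.10. In every list, 0 members passed in edgeR. Of the short-chain fatty acid producing Clostridia, 10 of 20 tested genera lay above 0 and 10 below (median -0.16). Their summed share was 17.0%, 12.0% and 18.3% in Sham and 20.5%, 12.0% and 10.8% in SAH, with Blautia and Marvinbryantia above Sham and the NK4A136 and [Eubacterium] ruminantium groups below. Of the Oscillospirales, 21 of 29 lay below 0 (median -0.68), 10 did not overlap in that direction (43 of 187, or 23%, among all genera), and the summed share was 15.4% ± 2.59 in Sham and 11.8% ± 1.36 in SAH (exact permutation p = 0.1, two-sided, the smallest possible; 0.3 without SAH 2). The small-intestinal Firmicutes Romboutsia, Turicibacter, Clostridium sensu stricto 1 and Candidatus Arthromitus summed to 8.85%, 13.3% and 8.23% in Sham and 2.76%, 4.96% and 6.99% in SAH (exact permutation p = 0.1), a difference in means of -5.21 points, and -5.24 without SAH 2. The last of them was higher in SAH, against 3 members lower.

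Aerobic and facultative Gram-positive families had 15 of 16 tested genera above 0 and 5 higher in SAH without overlap (23 of 187, or 12.3%, among all genera). Members with 0 reads in Sham, such as Jeotgalicoccus and Facklamia, passed the filter on low counts only through other groups. Their place above 0 is therefore not independent of the filter. The list median of 9.85 was 1.99 in a fit of the 6 libraries alone. That fit tested 160 genera in place of 187, so the medians need not cover the same members. These families summed to 0.0432%, 0.0672% and 0.0450% in Sham and 0.110%, 13.7% and 12.6% in SAH, so the groups did not overlap but SAH 1 exceeded Sham 2 by little. Lactic acid bacteria and bifidobacteria had 6 of 6 above 0 (median 1.15), with overlapping sums of 11.9% ± 4.58 and 18.7% ± 7.75. Facultative Gram-negative Proteobacteria had 5 of 7 above 0 (median 2.26), with overlapping sums of 1.11% ± 0.150 and 1.35% ± 0.301, most of them Pseudomonas, which held 0.887% to 1.14% in Sham and 0.6625% to 0.8815% in SAH. Mucin users and mucus residents summed to 1.65%, 5.66% and 2.05% in Sham and 0.279%, 0.273% and 0.5865% in SAH, a difference in means of -2.74 points that was -1.47 without Sham 2 and -2.69 without SAH 2. Akkermansia and Mucispirillum had log2 fold changes below 0 (-6.62 and -1.39), while Helicobacter, with 0.211% to 0.5455% in Sham and 0.226% to 0.539% in SAH, overlapped. Bacteroidales had 12 of 22 above 0 (median 0.15; sums 17.7% ± 3.70 and 22.7% ± 5.09), Erysipelotrichales 6 of 8 (1.44; 2.94% ± 0.541 and 3.54% ± 1.12) and Coriobacteriia 4 of 9 (-0.08; 0.187% ± 0.0564 and 0.144% ± 0.0617). Sulfate and sulfite reducers had 1 of 3 above 0 (-0.84; 0.532% ± 0.0556 and 0.442% ± 0.140). Reagent and environmental genera, a check on laboratory DNA, had 2 of 3 above 0 (0.40) and summed to 0.998% ± 0.131 and 0.755% ± 0.117, lower in all SAH libraries (0.890% at the lowest in Sham, 0.8875% at the highest in SAH; exact permutation p = 0.1). Nearly all of that sum was Pseudomonas, whose reads also count in the facultative Gram-negative list, so it describes 1 genus. Plant chloroplasts and mitochondria had 0 reads.

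**Figure D4:**
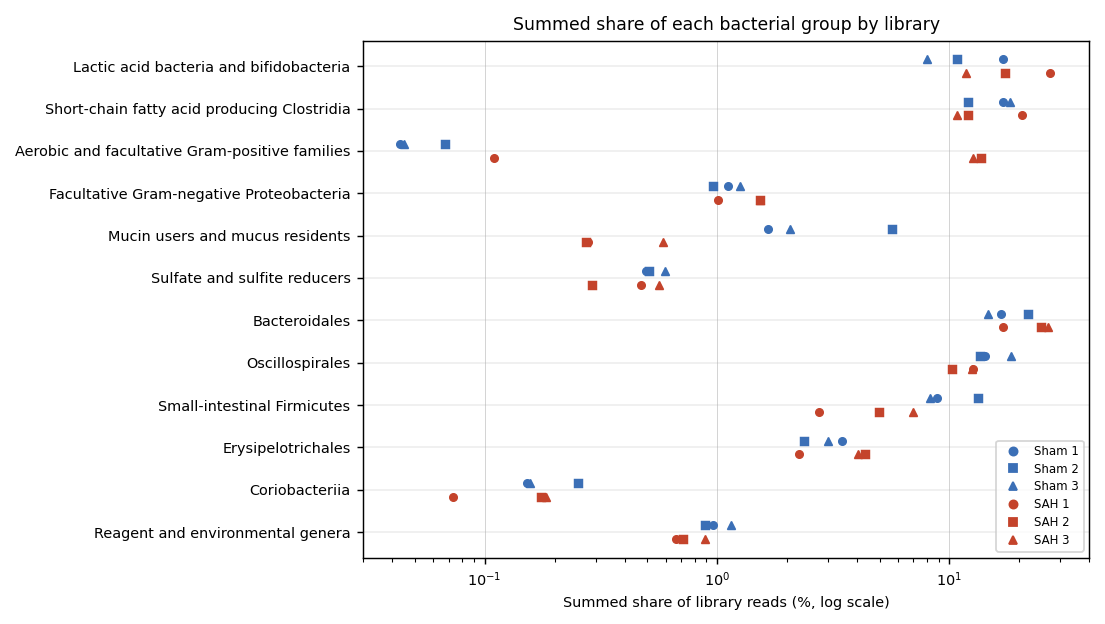
Summed share of reads (%, log axis) of each bacterial group in each library, Sham blue and SAH red. Small-intestinal Firmicutes and mucin users lie lower in all SAH libraries, and the aerobic Gram-positive families reach 13.7% in SAH 2 and 12.6% in SAH 3 but 0.110% in SAH 1.

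In edgeR 0 of 2283 ASVs passed (0%), 553 had an unadjusted p under 0.05, DESeq2 called 413 and limma 270. The groups did not overlap in 160 ASVs higher in SAH (7.01%) and 541 lower (23.7%), beside 12.3% and 23% of genera, and 65 and 269 of these had 0 reads in all libraries of the lower group. Without SAH 2 the counts were 200 and 572. ASVs with 0 reads in the lower group passed the filter on low counts only through other groups. Their edgeR, DESeq2 and limma p-values, and their place in these counts, are therefore not independent of their high shares. Of the 160, 119 could still be tested without SAH 2. The ASVs named below with 0 reads in a group have the same limit and are given as a description. In the 3 Sham libraries but in no SAH library, 297 ASVs held 9.49%, 6.37% and 11.3% of Sham reads. The 74 ASVs found in each SAH library and in no Sham library held 13.2%, 10.7% and 9.36% of SAH reads. With 248285 reads drawn from each library, such ASVs averaged 11.3% of SAH reads, and 19.75% when SAH 1 was left out. Leaving out a library loosens the rule and can only keep or add ASVs. In all reads, 245 ASVs were found in SAH 2 and SAH 3 only, with 9.13% and 9.64% of their reads. Lachnospiraceae provided 119 of the 297 (40.1%) and 35 of the 74 (47.3%), against 1379 of the 5207 ASVs seen (26.5%). The 297 and the 74 had to occur in all 3 libraries of a group, while the 5207 needed reads in any library. These shares are therefore not drawn from like sets. The 350 ASVs common to all 6 libraries held 45.9% to 62.4% of reads.

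In some genera, different ASVs were found in the groups. In Candidatus Stoquefichus, ASV 1 (ASVs are numbered by total reads within their genus) had 0 reads in Sham and 0.170%, 0.1001% and 0.111% in SAH. ASV 2 of that genus held 0.00726%, 0.0201% and 0.0381% in Sham, all of the genus there, and 0.00363%, 0.00132% and 0.0147% in SAH. In Akkermansia, ASV 1 held all Sham reads and only 0.000941% in SAH 2, while ASV 2 occurred in SAH 2 (0.0433%) and SAH 3 (0.0334%) alone. The few Akkermansia reads in SAH thus came mostly from another variant than those in Sham. In Bifidobacterium, sugar fermenters of the Actinobacteriota, ASV 4 and ASV 5 were found in every Sham library (0.0279% to 0.121% and 0.0156% to 0.0351%) with 0 reads in SAH. ASV 1, named Bifidobacterium animalis by the authors, held 0.0152% to 0.0823% in Sham and 0.0910%, 0.755% and 0.657% in SAH.

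Among abundant fermenters, some ASVs were found in a single group. Blautia ASV 1 had 0 reads in Sham and 3.63%, 1.69% and 0.0691% in SAH, at least 3021-fold higher on the mean, and ASV 2 had 0 reads in Sham and 0.819%, 0.422% and 0.0544% in SAH. Blautia ASVs found in each SAH library and in no Sham library made up 78.9% of the genus's reads in SAH. Ruminococcus ASV 14 (0.281%, 0.152% and 0.244%) and ASV 20 (0.321%, 0.1125% and 0.319%) were found in SAH only. ASV 24 was found in Sham only (0.216%, 0.0114% and 0.155%), while the genus share overlapped. UCG-005 ASV 7 had 0 reads in Sham and 0.3585%, 0.218% and 0.393% in SAH. Unnamed Lachnospiraceae ASV 1 held 4.86%, 2.02% and 5.68% in Sham and 0.00242%, 0.165% and 0.843% in SAH, and ASV 4 had 0 reads in Sham and 2.56%, 1.29% and 0.162% in SAH. In the Lachnospiraceae NK4A136 group, ASV 4 (0.0478%, 0.119% and 0.0752%), ASV 5 (0.380%, 0.264% and 0.386%) and ASV 9 (0.194%, 0.0770% and 0.0125%) were found in Sham only.

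Lactobacillus differed by variant as well. ASV 1, the most abundant ASV of these libraries, held 10.3%, 3.16% and 2.40% in Sham and 19.7%, 11.2% and 6.58% in SAH. ASV 2, named Lactobacillus intestinalis by the authors, held 0.959%, 4.14% and 2.06% in Sham and 0.942%, 0.616% and 0.836% in SAH, and ASV 3 held 2.27%, 1.99% and 2.46% against 1.43%, 1.01% and 0.570%. ASV 2 and ASV 3 were lower in every SAH library, while ASV 1 overlapped. Romboutsia ASV 1 held 3.22%, 5.08% and 2.84% against 1.30%, 1.80% and 2.74%. Muribaculaceae ASV 43 (0 reads in Sham; 0.278%, 0.216% and 0.187%) was SAH-only. The mean distance between the ASV make-up of Muribaculaceae in Sham and SAH was 0.455, against 0.326 within Sham and 0.396 within SAH. The between-group distance, with those within Sham and within SAH in brackets, was 0.811 (0.430 and 0.569) among unnamed Lachnospiraceae, 0.798 (0.512 and 0.5765) in the NK4A136 group, and 0.753 (0.476 and 0.577) in Clostridia UCG-014. It was 0.948 (0.657 and 0.380) in Blautia, but only 0.0207 in Turicibacter, where ASV 1 held nearly all reads in both groups. The exact permutation p was 0.2 for Muribaculaceae, 0.4 for Turicibacter and 0.1 for the other 4. In other genera the between-group mean did not exceed the larger within-group mean: it was 0.438 (0.228 and 0.643) in Roseburia, 0.462 (0.556 and 0.392) in Alloprevotella, 0.523 (0.524 and 0.502) in Bacteroides and 0.667 (0.6745 and 0.453) in the [Eubacterium] coprostanoligenes group. In Ruminococcus it was 0.696 (0.674 and 0.498). Its ASVs found in all 3 libraries of a group and in none of the other held 9.68% of its Sham reads and 13.4% of its SAH reads. That count leaves out ASV 4, which had 0 reads in Sham and in SAH 1 but 0.778% in SAH 2 and 0.708% in SAH 3.

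**Figure D5:**
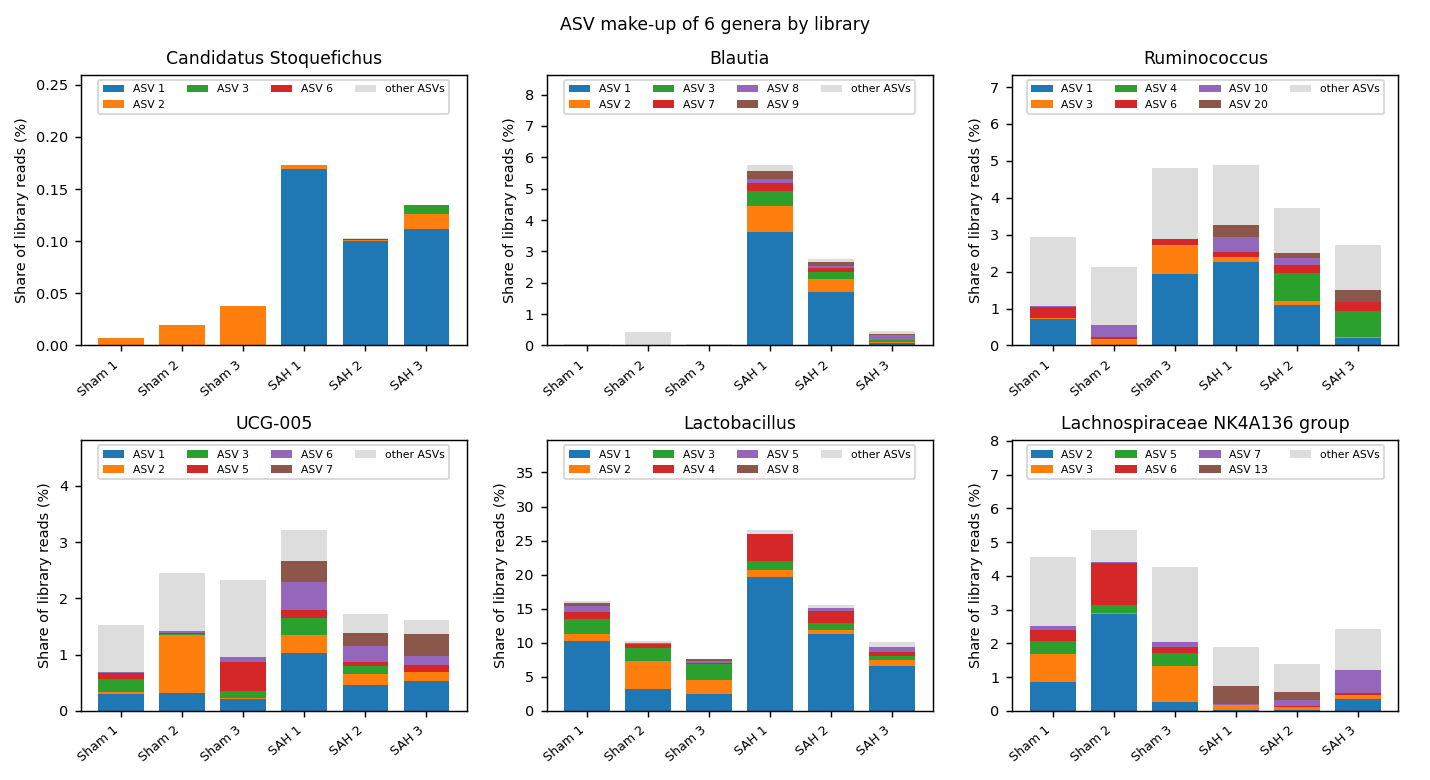
Share of reads (%) of 6 genera by library, split into up to 6 most abundant ASVs and the remainder in grey. Candidatus Stoquefichus ASV 1 and the coloured Blautia ASVs occur almost only in SAH. Ruminococcus and UCG-005 overlap in their totals, and most of their coloured ASVs occur in both groups, with a few found in SAH alone. Their Sham-only ASVs lie in the grey remainder.

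Richness was lower in some of the fermenting families. With 248285 reads drawn per library, Lachnospiraceae had 634 ± 60.9 ASVs in Sham and 426 ± 88.8 in SAH, Oscillospiraceae 339 ± 38.2 and 194 ± 47.2, Clostridia UCG-014 146 ± 17.3 and 81.4 ± 24.0, and Ruminococcaceae 172 ± 6.35 and 129 ± 33.0. Each difference had an exact permutation p of 0.1, the smallest possible, and the groups did not overlap. Muribaculaceae had 184 ± 10.9 and 224 ± 78.3 ASVs (exact permutation p = 0.4). The groups also overlapped in Monoglobaceae (34.1 ± 2.56 and 27.7 ± 8.19) and Prevotellaceae (79.2 ± 12.2 and 69.0 ± 42.9). The same was true of the [Eubacterium] coprostanoligenes group (18.2 ± 3.52 and 19.0 ± 9.06). Corynebacteriaceae had 3.63 ± 1.70 and 13.2 ± 6.28 (exact permutation p = 0.1). SAH 1 was the lowest SAH library in these families except Clostridia UCG-014, with 324 Lachnospiraceae ASVs against 485 and 469 in SAH 2 and SAH 3, and without it the Lachnospiraceae difference in means was -156.7 ASVs in place of -207.7 (exact permutation p = 0.2), and -237.4 without SAH 2. The Ruminococcaceae difference of -43.1 was -24.5 without SAH 1, and the Muribaculaceae difference of 40.8 was 83.5 without SAH 1 and 6.61 without SAH 2. Whether depth or the overlap among SAH libraries plays a part was not tested.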

How the data were processed

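The authors deposited unscaled read counts per ASV with lineages, per the file headers. The submitters' processing notes name fastp and cutadapt, without versions. The sources used here do not name a denoiser, primers or a taxonomy database, and gene copy number was not corrected. The 2 Eukaryota ASVs were left out. At family (193), genus (384) and ASV level, in 1 fit of the 9 libraries of Sham, SAH and SAH+Tet, on features with at least 10 reads in at least 3 libraries, counts were tested by edgeR's quasi-likelihood method (version 4.0.16, TMM scaling, R 4.3.3). Each SE is the size of the log2 fold change over the root of its F statistic, not a fitted SE. Folds against groups with 0 reads used 3 reads per library. Members and lists were chosen with earlier results of these data known. Named taxa had a mean share of at least 1%, or were, among taxa whose groups did not overlap, those with the lowest p per direction (up to 8 families, 12 genera and 8 ASVs of at least 0.05%), or were the 10 most abundant ASVs per group or list members. The script was tested on simulated data. Alternatives included DESeq2 1.42.0, limma 3.58.1, other scaling, filters and blocks. No sequences are given.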

Additional observations from a re-analysis of the deposited data

How the results depend on the processing

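The count of families called (2 higher) was 0 without a filter, with 12 libraries, with the replicate number as a block and without any 1 library (0 to 0), and 1 with a filter of 50 reads, where Erysipelatoclostridiaceae remained. It was 27 in DESeq2 (18 higher), 5 in limma (2 higher), 18 with depth class as a block (15 higher) and, in a fit chosen after seeing the data, 7 in the 6 libraries alone without SAH 1 (5 higher). Genera called (0) numbered 48 in DESeq2 (30 higher), 9 in limma (4 higher), 26 with depth class as a block (22 higher), 5 in that added fit, and 0 to 1 without 1 library: Escherichia-Shigella without SAH 1, and ASF356, named after its value was seen, without SAH 3. ASVs called (0) numbered 160 without a filter (97 higher), 308 in the 6 libraries alone (64 higher), 413 in DESeq2 (163 higher), 270 in limma (105 higher) and 180 in the added fit. In the 6 libraries alone and in the added fit, an ASV with 0 reads in 1 group passed the filter only through the other group. The p of such an ASV is not independent of its high share there, and its call is a description. SAH 1 is the only library of these 6 in the low depth class; the cause of these differences was not tested. Deviations of same-numbered Sham and SAH libraries correlated at 0.10, 0.07 and 0.06 over genera, against -0.13 to 0.07 for differently numbered ones. Over ASVs the same-numbered values were 0.04, 0.22 and -0.05, against -0.16 to 0.14. Whether the replicate numbers pair the samples cannot be told from these values. With the replicate number as a block, 0 families, 0 genera and 0 ASVs passed. The median log2 fold change over all families moved from 0.29 to -0.01 under library size scaling, over genera from 0.10 to -0.03, and over ASVs from -0.67 to -0.87. The log2 fold change of Muribaculaceae turned to -0.10 in limma. Reads in ASVs found in each SAH library and in no Sham library (11.3%) ranged from 11.6% to 19.75% (without SAH 1) without 1 library. Those in each Sham library and in no SAH library (9.14%) ranged from 8.59% to 13.4%. Leaving out a library loosens this rule and can only keep or add ASVs. The difference in the summed share of short-chain fatty acid producers (-1.31) ranged from -4.33 to 0.506. The median of aerobic Gram-positive families (9.85) ranged from 1.88 to 10.83. List medians changed sign over the alternatives for these producers (-0.51 to 0.43), Bacteroidales (-0.94 to 0.49), Coriobacteriia (-0.70 to 0.13) and reagent genera (-0.33 to 0.74).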
